A study of Mus musculus with 2 samples.

Results

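The gelsolin family is a set of actin-regulating proteins built from repeated gelsolin domains, and its 7 members Gsn, Scin, Vil1, Avil, Capg, Flii and Svil were read probe by probe on 2 mouse liver arrays. Members were chosen by gene symbol, and every probe carrying a member's symbol in the scanner files was taken, which gave 10 probes. The arrays carried 31709 gene names in all. The family was singled out with the Gsn difference of these arrays known, so the values below describe the 2 livers and no test was run on them.

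One array held total RNA from the liver of a wild-type C57BL/6 mouse. The other held liver RNA from a C57BL/6 mouse that carried Alb-Cre and a CAG-floxed neo-Snail transgene, and it is called the library labelled Snail. In a transgene of that design the neo cassette is meant to be cut out by Cre. Alb-Cre makes Cre recombinase under control of the albumin promoter, and so in hepatocytes, while the CAG promoter is strong in most cell types. Snail, encoded by Snai1, is a zinc-finger repressor of transcription. The study concerns fatty liver inflammation and liver tumours in mice whose hepatocytes are made to express Snail, and the comparison sets the transcripts of such a liver beside those of a wild-type one. Age, sex and diet are not given in the labels, and neither is whether Alb-Cre was absent from the wild-type mouse or whether the sampled piece held a tumour. Each group has a single array and so no replicates, and no difference below has a check against the spread between animals.

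Actin filaments grow and shrink at their ends, and gelsolin cuts them and then stays on the fast-growing barbed end as a cap. Calcium switches this activity on and membrane phosphoinositides switch it off. Gelsolin is made both as a cytoplasmic protein and as a secreted plasma form that binds actin released from damaged cells. In liver it is known mainly from non-parenchymal cells, while villin supports the microvilli of the bile canaliculus.

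Gsn stood apart from the other 6 members. It was 468.3-fold higher in the library labelled Snail, and a second gelsolin probe was 510.5-fold higher. Vil1, the gene of villin, was well above background in that library and not in the wild-type one, at least 13.5-fold higher. Capg, Flii and Svil were measured on both arrays and differed by less than 2-fold, and Scin and Avil were not well above background on either.

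The sequences below are shown because the Gsn result rests on probes that overlap, and because the Vil1 result rests on a single probe. The Gsn probe is a 60-base oligonucleotide at chr2:35163342-35163401 on the plus strand of mm9. The second probe lies at chr2:35163358-35163417 and is annotated in the files as a gelsolin precursor transcript, without the symbol, so it is no member by the rule and is given beside Gsn. The Vil1 probe lies at chr1:74481982-74482041. Each line gives 30 bases read from the scanner files, bases 31 to 60 of both gelsolin probes and bases 1 to 30 of the Vil1 probe. Capitals mark the hexamer AATAAA, the usual polyadenylation signal.
Gsn: tactttggaaatgaaagccAATAAAagctt
Second gelsolin probe: gccAATAAAagctttttgaagtgtgttctc
Vil1: tacgtgaagtccaatcagaagccaataggt
The gelsolin probes start 16 bases apart and share 44 of their 60 bases, so they are not independent readings of different exons. Both hold the hexamer, which was searched on the probe strand and is present in 4965 of 39429 probes (12.6%). No other probe on the array shared a stretch of 20 bases with either of them, and none shared one with the Vil1 probe.

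On the Gsn probe the processed signal, a background-subtracted brightness, was 162.0 ± 16.4 in the wild-type liver and 98484 ± 9848 in the library labelled Snail. The ± here is the scanner software's own error for that spot. On the second gelsolin probe the signal was 90.0 ± 9.48 in the wild-type liver and 59660 ± 5966 in the other. Both probes were thus well above background in the wild-type liver, though under that array's 75th percentile of 232.7, and among the bright spots of the other array.

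Signals were compared after scaling each array to its 75th percentile, which was 232.7 for the wild-type array and 302.1 for the other. On that scale the Gsn difference was 8.87 ± 0.21 (log2, software error of both spots). That of the second gelsolin probe was 8.996 ± 0.21. The 2 probes differed by 0.12 on this log2 scale, less than the software error of that gap, 0.29. Without the scaling, the ratio of the Gsn signals was 608.1 and that of the second probe 662.9. With normexp background correction and an offset of 50, which compresses dim signals, the log2 differences were 8.53 and 8.36.

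Among the 19047 probes measured on both arrays, these differences ranked second for Gsn and first for the second gelsolin probe. The median over all those probes was -0.02 (log2), and 80% of them lay between -0.75 and 0.58. The spread of the log2 difference over repeated spots of a probe gives the noise within an array, and its median was 0.078 over 239 probes. For probes with signals above 1000 it was 0.043, and for signals under 100 it was 0.19. These spreads hold no difference between animals.

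Both gelsolin spots of the library labelled Snail had values taken from the scanner's low-gain read and scaled up, a step applied to 803 spots of that array and 757 of the other. The lowest signal so treated on that array was 17982. No spot was saturated. In the wild-type array the Gsn spot had a mean pixel brightness of 243.5 against a local background of 64.0, so its lower reading was not at the floor of the array. The second gelsolin spot had 163.5 against 67.0.

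**Figure D1:**
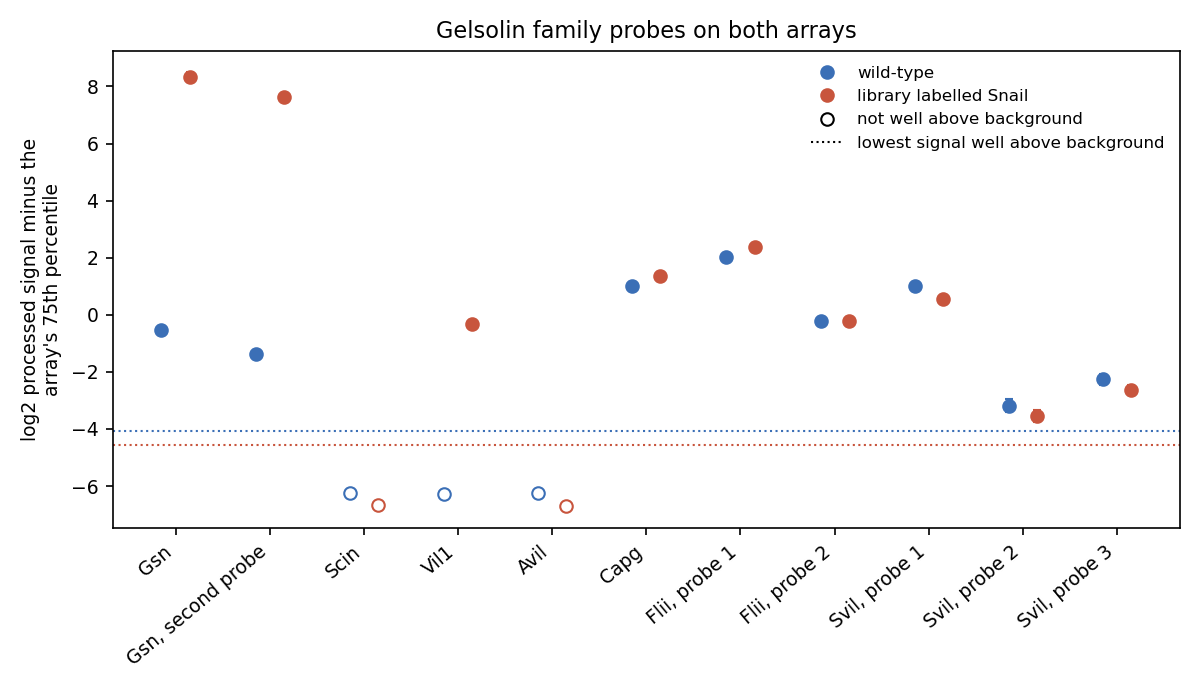
Scaled processed signal (log2, relative to each array's 75th percentile) of each gelsolin family probe and of the second gelsolin probe, in the wild-type library (blue) and the library labelled Snail (red), 1 array each. Bars, mostly hidden by the points, are the scanner software's error; open circles were not well above background, and dotted lines mark the lowest signal well above background on each array; levels of different probes are not comparable, so each pair is read on its own. Both gelsolin probes lie far apart between the arrays, Vil1 is filled in 1 library, and Capg, Flii and Svil lie close together.

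Gsn has 3 transcription starts in the RefSeq promoter table (GRCm38.p6). Both gelsolin probes lie together at one place, so the arrays give no level by start and do not separate the cytoplasmic from the plasma transcript. The 3 protein-coding genes on each side of Gsn in RefSeq order were read for comparison. Rab14, a small GTPase gene next to it, differed by -0.15 (log2), with signals of 5056 and 5913. On the other side Stom, the gene of the membrane protein stomatin, was higher on both of its probes, by 0.85 and 0.80, with signals of 377.5 and 883.4 on the first and of 53.5 and 121.2 on the second. Farther away, Cntrl differed by -0.36 on 1 probe and was not well above background on its other one. AI182371 was lower on both probes, at -0.69 and -1.49. The RIKEN genes 4930568D16Rik and 4930402F06Rik stayed under the background call in both libraries. The large Gsn difference was not seen at any of these neighbours.

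By the size of the difference over these 2 arrays, the genes nearest to Gsn were Plin4, Cidec and Ly6d, once predicted gene models, RIKEN clones and accession names were passed over. That passed over 1 probe lying nearer, of the gene model Gm4956, with signals of 31.9 and 14162 and a log2 difference of 8.42. Plin4, the gene of a lipid droplet coat protein, had signals of 43.1 and 7002 and a log2 difference of 6.97, which is 1.90 below that of Gsn. Cidec, which promotes fusion of lipid droplets, had 16.4 and 2516 and a difference of 6.88. Ly6d, the gene of a GPI-anchored surface protein, had 104.9 and 15199 and a difference of 6.80. This likeness is one of size between 2 libraries.

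Vil1, the filament-bundling and severing protein of microvilli, had a processed signal of 2.98 in the wild-type liver, where it was not well above background. In the library labelled Snail the signal was 242.1 ± 24.4, well above background. The mean pixel brightness of its spot was 70.6 against a local background of 64.0 in the wild-type array, and 320.3 against 66.0 in the other. The wild-type value is therefore a limit and no level. The bound sets the scaled signal of the brighter array against the lowest signal well above background on the dimmer one, which was 13.8. It came to at least 13.5-fold, or 3.76 on the log2 scale. With normexp background correction and an offset of 50 the log2 bound was 1.86. Vil1 was 1 of the 10 member probes with this pattern, and over all 39422 probes the share was 4.74%. The opposite pattern was seen for 1.44% of all probes and for no member.

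The genes beside Vil1 did not share its pattern. Ctdsp1, a phosphatase gene next to it, differed by 0.14 (log2), Slc11a1, a macrophage metal transporter, by 0.53 and Catip by -0.22. On the other side Usp37 stayed under the background call in both libraries. Cnot9 differed by -0.01, and Plcd4 by -0.21 on the 1 of its 3 probes that was measured.

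Scin, or scinderin, a severing protein of secretory cells, had signals of 3.07 and 2.98 in the wild-type and Snail-labelled libraries. Avil, or advillin, known from sensory neurons and tuft cells, had signals of 3.05 and 2.92. Neither was well above background on either array, so no fold is given for them. Their probes lie at chr12:40786517-40786576 and chr10:126453541-126454065, the latter a span longer than the probe in the files' annotation.

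Capg caps barbed ends without severing filaments and is abundant in macrophages. Its probe, at chr6:72512913-72512972, had signals of 464.9 ± 46.6 in the wild-type liver and 770.3 ± 77.1 in the library labelled Snail. After scaling, the log2 difference was 0.35 ± 0.20, or 1.28-fold higher. This was the 80.3rd percentile of all measured probes.

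Flii, or flightless I, joins gelsolin domains to leucine-rich repeats and also acts as a nuclear coactivator. Its first probe, at chr11:60527769-60527828, had signals of 944.0 and 1569 and a log2 difference of 0.36 ± 0.20. Its second probe, at chr11:60532352-60532411, had signals of 201.3 and 259.0 and a difference of -0.01 ± 0.21. This turned to 0.02 with normexp, and to 0.06 with the 75th percentile taken over spots well above background alone. The probes lie 4583 bases apart, and their differences were 0.37 apart against a software error of 0.29 for that gap. That gap is only modestly above the error, with 1 spot a probe, so a dependence on the probe is not established. The gene's difference was under 2-fold on both.

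Svil, or supervillin, is a large membrane-associated member that binds myosin II and filamentous actin. Its 3 probes on chromosome 18 gave differences in one direction after scaling. The first had signals of 466.9 and 440.5 and a log2 difference of -0.46 ± 0.20, or 1.38-fold lower. The second had signals of 25.5 and 26.0 and a difference of -0.35 ± 0.32. The last had 48.4 and 49.0 and a difference of -0.36 ± 0.26. Without the scaling, the ratios of the signals were 0.94, 1.02 and 1.01, so all 3 probes were nearly equal on both arrays. The array of the library labelled Snail had the higher 75th percentile, and the scaling lowers every difference by 0.38 (log2). The differences of the latter 2 probes come from the scaling, and so does most of that of the first. Their shared direction is therefore no independent sign of a lower Svil.

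In all, 7 of the 10 member probes, of 4 genes, were measured on both arrays. Of these 7, Gsn (1 probe) was higher by 2-fold or more in the library labelled Snail, where the share over all measured probes was 3.75%. None was lower by 2-fold or more, where that share was 6.16%. The median of the 7 was -0.01 (log2), near that of all probes. Since the family was chosen with the Gsn value known, nothing is read from these counts. The plot of all probes shows the members in that distribution.

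**Figure D2:**
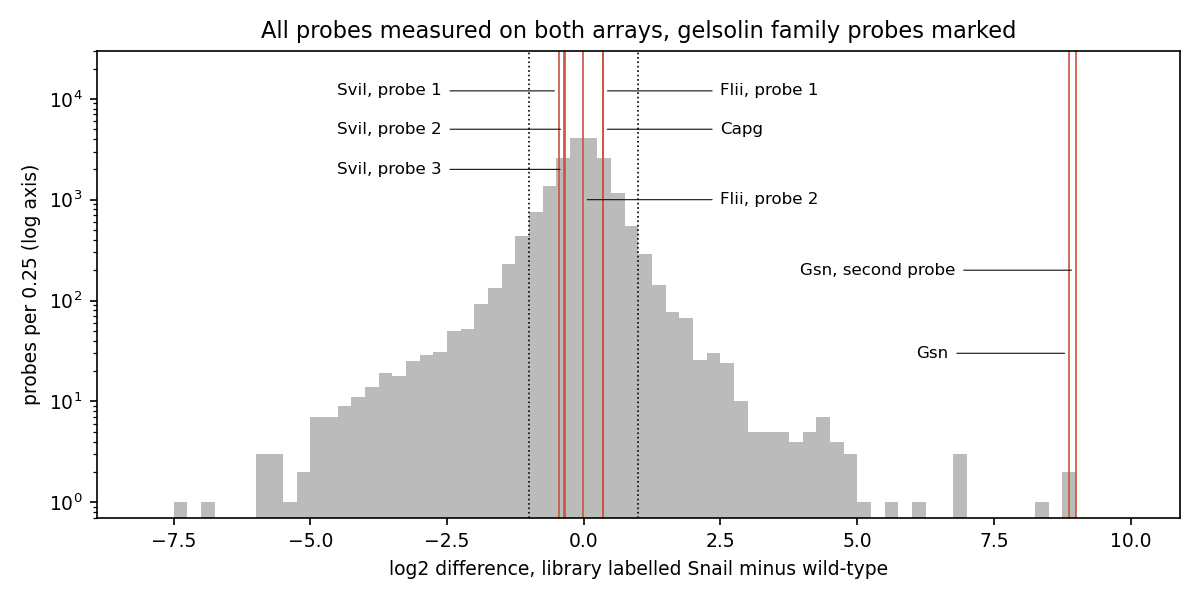
Number of probes (log axis) in bins of 0.25 of the log2 difference, the library labelled Snail minus wild-type, for the 19047 probes measured on both arrays; red lines mark gelsolin family probes and the second gelsolin probe, and dotted lines mark 2-fold. Both gelsolin probes lie at the far right, at 8.87 and 8.996, while Capg, Flii and Svil lie inside the dotted lines, from -0.46 to 0.36.

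Snail binds the E-box CAGGTG, so the promoter windows of the members were searched for it on both strands in the RefSeq table, from 250 bases before each start to 50 after it. The table held 8 windows of 6 members. CAGGTG was found in 3 of the 8, and in 6640 of all 32851 windows of the same length (20.2%). One of the 3 Gsn windows held it, 41 bases before the start. The Capg window held it at 243 and at 62 bases before the start, and the Vil1 window 26 bases after it. The lines below show 30 bases around a match for Gsn, at chr2:35266691-35266720, and for the Capg match nearer the start, at chr6:72549573-72549602, both plus strand on GRCm38.p6, with the motif in capitals.
Gsn: accctccagcagCAGGTGtgggcagtgcta
Capg: agggtccgggaaCAGGTGggaacggtgtcc
A match describes the letters in the window. These arrays hold no binding data. The probe of Snai1 itself read 23.2 on the wild-type array against 22.3, which after scaling is -0.44 ± 0.32 in log2. Whether the transgene carries the sequence of that probe is not given in the sources used here, so it checks no label.

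Whole liver holds many cell types, and in bulk RNA a change in the number of cells of a type cannot be told apart from a change in RNA per cell. Marker lists were therefore read beside the members, as the sum of scaled signals over the measured markers of a list. The sums are in units of the array's 75th percentile and mostly follow the brightest markers of a list. All 8 hepatocyte markers were measured, and their sum was 3271 in the wild-type liver and 2050 in the library labelled Snail.

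Beside the Gsn difference, markers of other cells that make gelsolin went in different directions. Of 8 stellate cell markers 7 were measured, all lower, and their sum went from 59.1 to 31.2. Most of that sum was Dcn, with signals of 11549 and 7804. Muscle markers were mostly dim, with 2 of 6 smooth muscle markers measured (sums of 1.86 and 2.46) and 1 of 8 for skeletal muscle (0.140 and 0.187), and Myh11, Cnn1, Lmod1, Ckm and Myh4 stayed under the background call in both libraries. Acta2, smooth muscle actin, passed it in the library labelled Snail and not in the wild-type one, with signals of 16.4 and 33.8, an observed 1.93-fold difference after scaling. Of 8 adipocyte markers 2 were measured, with sums of 2.65 and 15.6. Most of that change was the β3-adrenergic receptor gene Adrb3 (4.53 in log2), while Adipoq, Plin1, Lep, Cfd, Cidea and Retn were under the call in both libraries. Of 8 macrophage markers 7 were measured (sums of 65.3 and 78.6, Marco highest at 1.503), and of 7 neutrophil markers 4 (3.02 and 6.81, S100a8 highest at 1.99). The other 3 neutrophil markers, Cxcr2, Mpo and Retnlg, passed the background call in the Snail-labelled library alone. Mpo was at least 2.08-fold higher on the probe, of its 2, with the largest bound. All 7 sinusoidal endothelial markers were measured (sums of 44.3 and 42.4, median -0.098 in log2). Lyve1 was the highest of them at 1.99, with signals of 59.0 and 304.8. Of 6 mesothelial markers 1 was measured (0.177 and 0.127). The part of any of these cells in the Gsn difference was not tested.

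Beside the Vil1 difference, markers of villin-rich epithelia were mostly dim. Of 8 cholangiocyte markers 2 were measured, Sox9 (1.55 in log2) and Spp1 (0.58), with a sum of 0.343 in the wild-type liver and 0.696 in the other. Krt19, Krt7, Epcam and Cftr passed the background call in neither library. Of 8 enterocyte markers 2 were measured (sums of 18.9 and 19.9), and Cdx2, Lct and Alpi were under the call. Most of that sum was Fabp2, with signals of 4332 and 5959. Of 7 tuft cell markers 2 were measured (sums of 2.07 and 2.25), both also made by leukocytes, and Pou2f3, Trpm5 and Dclk1 were under the call. The part of these cells in the Vil1 difference was not tested.

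The family acts on actin together with many other proteins, which were read as 10 lists holding 122 genes, of which 97 were measured on both arrays. Genes with several measured probes were averaged over them. Of the 97, 5 (5.15%) were higher by 2-fold or more in the library labelled Snail and 6 (6.19%) were lower by as much. Over all 15421 measured genes the shares were 3.98% higher and 6.33% lower. The median of the 97 was 0.13 (log2), against -0.03 over all measured genes. Of the 122 genes, 8 (6.56%) passed the background call in the Snail-labelled library alone, where the share over all genes was 4.35%. In the wild-type library alone it was 1 (0.820%), against 1.45% of all genes, and 16 passed it in neither.

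Other genes listed for a gelsolin domain or for a villin headpiece, which only some family members have, did not go with Gsn or Vil1. All 5 listed were measured, none was 2-fold higher, 2 were lower by 2-fold or more, and the median was -0.77. Ablim3, an actin-binding LIM protein, had signals of 613.4 and 153.4 and was 5.19-fold lower. Dmtn, the gene of the bundling protein dematin, had 3536 and 2232 and was 2.06-fold lower on its 1 measured probe. Vill, the villin-like gene, had 56.3 and 67.0 and differed by -0.12.

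Of the 6 actin genes 2 were measured on both arrays, and these differed by less than 2-fold and in opposite directions. Acta2 passed the background call in the library labelled Snail alone, as given above, and the other 3 passed it in neither. Actb, β-actin, differed by -0.45 (log2) with its 2 probes at -0.80 and -0.11, and Actg1, γ-actin, by 0.51 with 5 probes from 0.04 to 0.88. Among actin monomer binders 8 of 9 were measured and none was 2-fold apart (median 0.17). Gc, the vitamin D binding protein that with plasma gelsolin clears actin from blood, had signals of 88096 and 94305 and differed by -0.28.

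Of the cofilin system, the other means of severing filaments, 12 of 14 genes were measured, with a median of 0.26, 1 higher by 2-fold or more and none lower. That gene was Limk1, the kinase that inactivates cofilin, with signals of 90.3 and 281.7 and a log2 difference of 1.26, while Cfl1, cofilin itself, differed by 0.07. Proteins that cap the barbed end, as gelsolin and Capg do, were listed together with tropomodulins. Of that list 8 of 12 genes were measured and none was 2-fold apart (median 0.06), with Add3 nearest to it at 0.97. Capza1 averaged -0.08, while its 3 measured probes ran from -1.01 to 0.47. Of the Arp2/3 complex and its activators 15 of 16 were measured and none was 2-fold apart (median -0.005).

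Formins and Ena/VASP proteins, which elongate filaments, had 10 of 14 genes measured and a median of -0.16, with none 2-fold higher and 2 lower. Inf2, a formin that also severs filaments, had signals of 3133 and 1012 and was 4.02-fold lower, and Daam2 was 2.16-fold lower. Fhod3 was well above background in the wild-type liver and not in the other, at least 3.83-fold lower. Of the bundling proteins and tropomyosins 16 of 19 were measured, with a median of 0.28, 2 higher by 2-fold or more and none lower. Tpm2, β-tropomyosin, had signals of 167.2 and 3676 and was 16.9-fold higher, with its 2 probes at 4.08 and 4.09, and Tagln2 was 2.31-fold higher. Tpm2 was the most different measured gene of the 10 lists.

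Villin works in microvilli, and of 17 brush border and microvillus genes 10 were measured, with a median of -0.21, 1 higher by 2-fold or more and none lower. Of the 10, 4 lay above 0. Cdhr5, a microvillar cadherin, had signals of 468.9 and 1427 and was 2.34-fold higher. Ezr, ezrin, was the next most different and lower, at -0.62 (log2), with signals of 95.6 and 80.8. Slc9a3r1, Eps8 and Anpep were lower too, at -0.50, -0.47 and -0.44, and Baiap2l1 was higher, at 0.56. Espn, the bundling protein espin, has 2 probes, and only the one with the largest bound is given. It had the Vil1 pattern, with 5.70 and 124.0, and was at least 6.92-fold higher. Myo7b, a microvillar myosin, had that pattern too, with 4.203 and 96.4, and was at least 5.37-fold higher. Myo1a passed the background call in the Snail-labelled library alone as well, but with signals of 12.8 and 15.5. Its bound was 0.86-fold, which gives no direction. In all, 3 of the 17 genes passed the call in that library alone, where the share over all genes was 4.35%. Ush1c, Pls1 and Eps8l3 stayed under the background call in both libraries.

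Partners of Flii and Svil and targets of serum response factor were all measured (13 of 13), with a median of 0.25, 1 higher by 2-fold or more and 2 lower. Lrrfip1, which binds the leucine-rich repeats of flightless I, was 3.87-fold lower, with 2 probes at -2.33 and -1.57. Vcl, the focal adhesion protein vinculin, was 2.07-fold lower, and Zyx, zyxin, with signals of 1953 and 5089, was 2.01-fold higher. The plot of actin cytoskeleton genes gives these differences list by list.

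**Figure D3:**
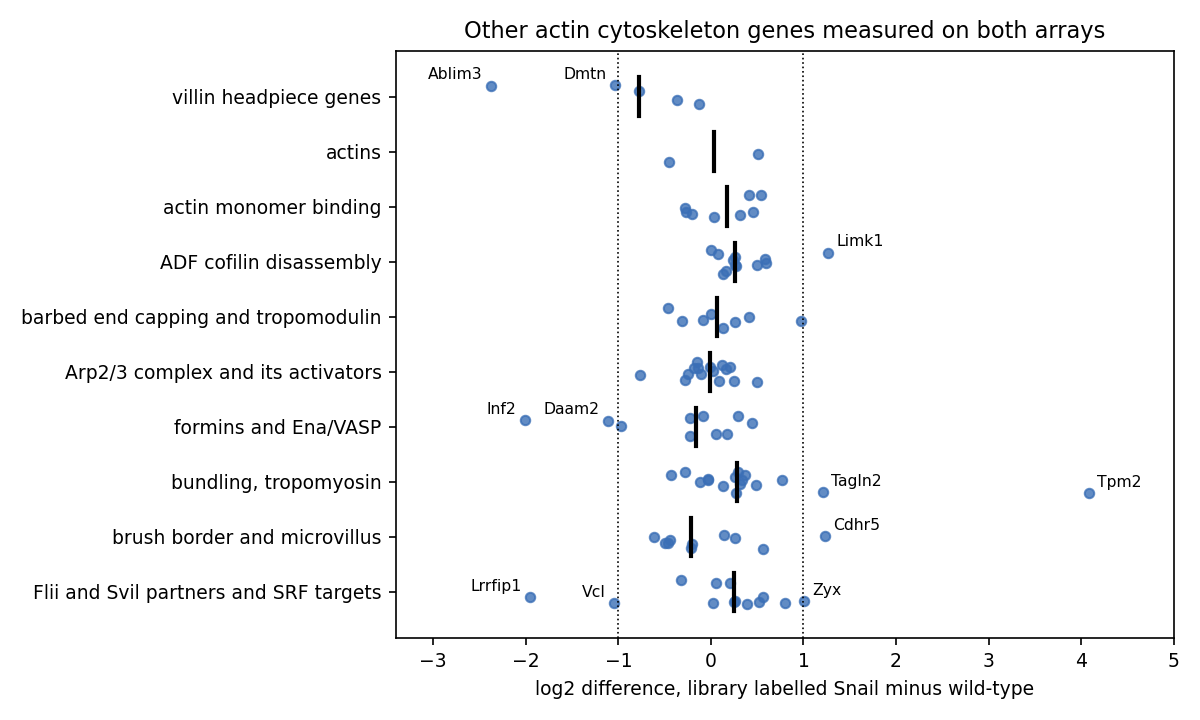
Log2 difference, the library labelled Snail minus wild-type, of each actin cytoskeleton gene measured on both arrays (points), grouped in 10 lists, with the list median (black bar) and 2-fold marked (dotted lines); vertical scatter within a list has no meaning. Most of the 97 genes lie within 2-fold, and Tpm2 at 4.08 is the farthest point on either side.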

How the data were processed

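Liver RNA was labelled with Cy3 and hybridized to 1-colour Agilent arrays, 1 per group, on 1 slide read in 1 scan. Scanner files of Agilent Feature Extraction 9.5.1.1 (version per the submitters' processing notes) were deposited by the authors. Per the file headers, the intensity values in them had the background subtracted, and positions refer to mm9. The authors also deposited a value table whose scale and centring are not stated. Both columns had a median of 17.3 and each followed its own array (correlation 1.00).

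Intensity values were divided by the 75th percentile of the array's 43020 non-control spots and taken to log2 (Python 3.11.15, pandas 2.3.3). The 287 outlier spots were left out. A probe counts as measured if the scanner software called it well above background on each array. It so called 50.7% and 54.0% of spots. Names came from the files or, for 66.1% of probes, RefSeq. Scripts were tested on simulated data. The members and lists were chosen with earlier results of these data known. Genes named are all members, the 3 most different of each list and bounds of at least 2-fold (not all printed). Gc, Cfl1, Vill, Capza1 and the genomic neighbours were added for their role, place or probe range, with values known. Alternatives included normexp (limma 3.58.1, offset 50), other scalings and other filters.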

Additional observations from a re-analysis of the deposited data

How the results depend on the processing

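Across 8 other settings, 65 of 68 values of gelsolin family probes moved by no more than their error. For the Vil1 bound, the median spread over repeated spots stood in for that error. The filter and outlier settings left each retained value as it was. Median centring and the 75th percentile over spots well above background shifted all probes alike. Most of these values could thus hardly move, and the count is a weak check. None of Gsn, Vil1, Capg or Svil changed direction. Gsn ranged from 8.53 to 9.08 (log2) and the second gelsolin probe from 8.36 to 9.19, both lowest with normexp background, where the Vil1 bound also dropped to 1.86. The second Flii probe turned to 0.02 with normexp and 0.06 with the percentile taken over spots well above background. A filter at a signal of 100 left no value for Vil1, the second gelsolin probe or the 2 dimmer Svil probes. With no filter, 2 member probes were at least 2-fold higher, as were 1010 of all probes, and 1498 of all probes were lower. Of all probes, 352 were higher and 683 lower with normexp, and 293 and 689 with the stricter filter. List medians with normexp were -0.51 for villin headpiece genes, 0.16 for cofilin, 0.14 for bundling and 0.10 for Flii and Svil partners. Quantile normalization and the authors' table gave 0.25 and 0.23 for actins, 0.32 and 0.31 for monomer binding, and 0.10 and 0.086 for Arp2/3. The stricter filter gave -1.71 for villin headpiece genes, 0.36 for monomer binding and -0.032 for the brush border. With no filter the values were -0.63 for villin headpiece genes, -0.46 for actins, 0.037 for monomer binding and -0.27 for capping and tropomodulin. The median of all probes was then -0.47. In that setting a signal under the background call was raised at least to the array's lowest signal well above background. Those floors were 13.8 for wild-type and 12.9 for the library labelled Snail, where the scaled floor is lower. A probe raised to the floor on both arrays therefore gets -0.47 by construction. The cause of the other shifts was not tested. No paired analysis was possible because each group has 1 array. The number of arrays limits the precision.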
